A study of Mus musculus with 4 samples.

Results

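Described here are 6 genes of the cell surface and extracellular matrix, Sdc1, Sdc4, Lamb1, Agrn, Large2 and Serpine2, in reporter-positive cells of the young mouse testis. They were read on 9 of the 45037 non-control probe sets on each of 4 one-colour expression arrays. The members were chosen from the authors' deposited comparison table, which lists 374 probe sets selected on these same arrays for a difference between the populations. Any other probe set of these genes on the arrays carries no name here and was not read. The differences below are therefore a description, and the counts of members called in fits over all probe sets, given beside their background, support nothing.

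The arrays compare Sox2GFP+ckit+ with Sox2GFP+ckit- cells (ckit+ and ckit- cells below), sorted by a green fluorescent reporter of Sox2 and by an antibody against ckit, the receptor for stem cell factor. All mice were 2 weeks old, carried the Sox2GFP reporter and had a mixed 129SvJae and BL6 background. Each population was measured on 2 arrays, each with RNA of cells from a pool of 20 testes, and between 20000 and 90000 cells went into an RNA sample. The labels describe the ckit- cells as able to rebuild damaged tubules and the ckit+ cells as unable to do so. No cells without the reporter were analysed here, so each value is a level within reporter-positive cells.

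Values are log2 expression values, on which a step of 1 is a doubling. Kit, which encodes the sorted surface protein, was read first. Its brighter probe set gave 9.68 and 9.62 in ckit+ cells, against 6.87 and 6.78 in ckit- cells. The dimmer Kit probe set gave 7.91 and 8.27 in ckit+ cells, against 6.22 and 5.44 in ckit- cells. Its ckit- replicates lay 0.78 apart. The array medians lay between 6.39 and 6.42. No probe set in the deposited table carried the name of Sox2, and none of the 6 germ cell markers looked for was named there. The labelled cell type could thus be read only through spermatogonial markers. For differentiating spermatogonia 3 of 5 were named (Kit, Stra8 and Dnmt3b) and 3 were higher in ckit+ cells. Kit is the gene of the sort itself and adds nothing to the reading above. For undifferentiated spermatogonia 5 of 10 were named and 5 were higher in ckit- cells. The named markers and both Kit probe sets come from the same selection by difference, so these readings could hardly go against the labels and do not test them.

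As background, spermatogonia lie on the basement membrane of the seminiferous tubule, a sheet built from laminins, type IV collagens and heparan sulfate proteoglycans. Syndecans are transmembrane proteoglycans whose heparan sulfate chains bind growth factors and matrix proteins. Laminins and agrin bind the sugar chains of dystroglycan, a receptor whose binding depends on that glycan. Secreted serpins such as the product of Serpine2 block serine proteases close to the cell surface.

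The members divided evenly by direction: Sdc1, Agrn and Serpine2 had higher values in ckit+ cells, and Sdc4, Lamb1 and Large2 had higher values in ckit- cells. Large2 differed most, by 4.24-fold, and Agrn least, by 2.30-fold, each by its brightest probe set. In 9 of the 9 probe sets the arrays of one population all lay on the same side of the other's, a separation that 48.6% of all probe sets show, and this follows from how the members were chosen. The nearest arrays of different populations lay between 1.03 and 2.00 apart on the log2 scale. In each of the 9 probe sets this was further than the replicates of either population lay from each other. The share of all probe sets with such a gap was not counted, and selection by fold and p favours it, so nothing is read from this.

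**Figure D1:**
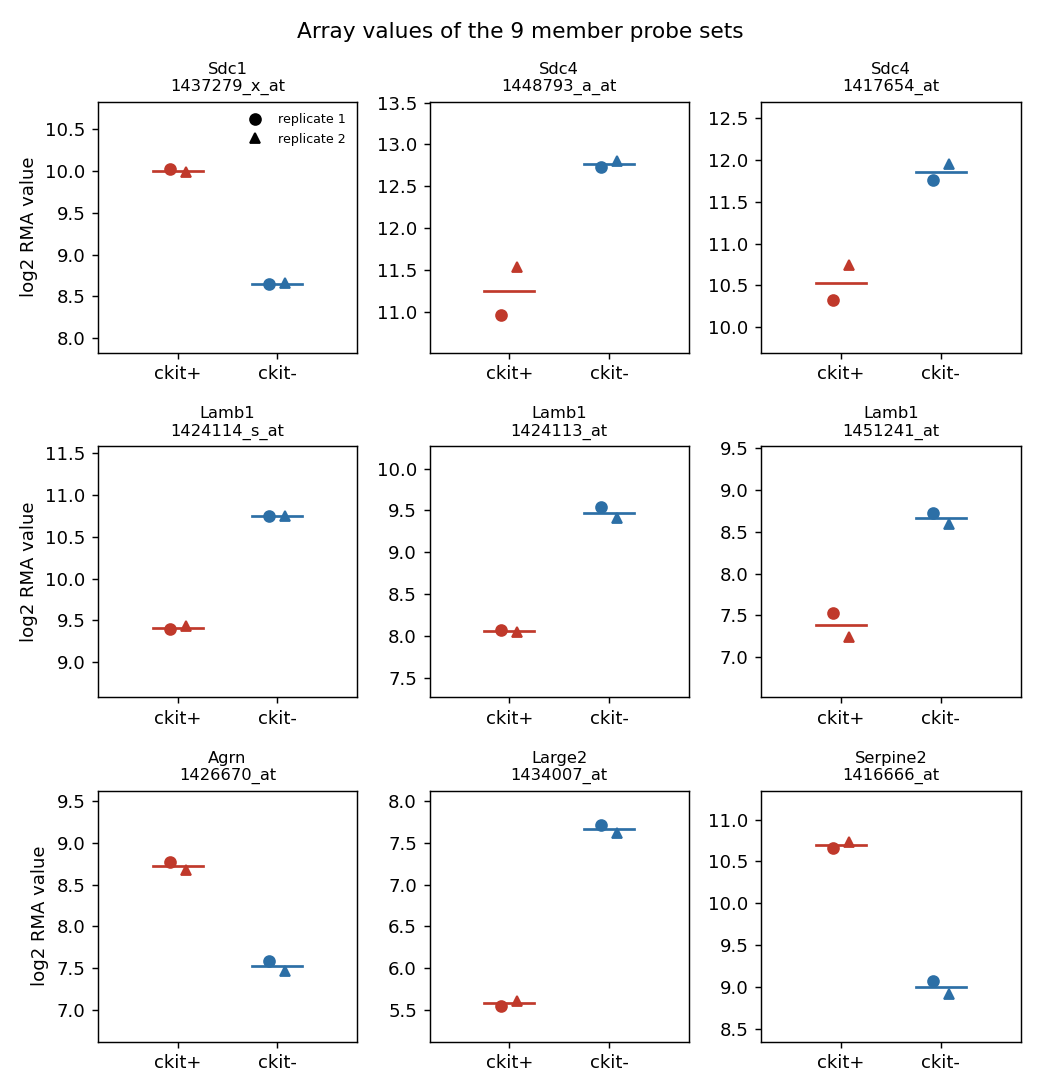
Log2 RMA value (vertical axis) of each of the 9 member probe sets in ckit+ and ckit- cells, with 1 panel per probe set and 2 arrays per population (circle, replicate 1; triangle, replicate 2; bar, mean). Every panel spans 3 log2 units; levels of different probe sets cannot be set against each other, and the widest spread between replicates is that of Sdc4 in ckit+ cells.

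The syndecans differed in opposite directions. Sdc1 (syndecan 1, also CD138, a cell surface proteoglycan known from epithelia and plasma cells) read 10.02 and 9.99 in ckit+ cells, against 8.65 and 8.65 in ckit- cells. Replicates of Sdc1 were at most 0.030 apart and the populations did not overlap. The log2 difference, ckit+ minus ckit-, was 1.35 ± 0.16 (limma's standard error, 2 arrays per population), or 2.55-fold. Its only named probe set, 1437279_x_at, is of the _x_at type, whose probes can also match other transcripts.

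Sdc4 (syndecan 4, a widely expressed proteoglycan of focal adhesions) had 2 named probe sets. The brighter, 1448793_a_at, read 10.96 and 11.54 in ckit+ cells, against 12.73 and 12.80 in ckit- cells. The dimmer, 1417654_at, read 10.32 and 10.74 in ckit+ cells, against 11.76 and 11.96 in ckit- cells. Every ckit+ array was below every ckit- array in each probe set, and in each of them replicate 1 was the lower of the ckit+ arrays. The spread between the ckit+ replicates was wide, with SDs of 0.41 and 0.29, against 0.050 and 0.14 in ckit- cells. The log2 differences were -1.52 ± 0.22 and -1.33 ± 0.20, or 2.86-fold and 2.51-fold higher in ckit- cells. The probe sets carry the same sequence accession in the deposited table, so they are readings of 1 transcript and not replicates of the populations.

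Because these paralogues differ in direction, their promoter windows from RefSeq (GRCm38.p6, 250 bases before to 50 after the gene start) are shown for comparison. Capitals mark GGGCGG, the GC box bound by Sp1, and TATAA, the core of a TATA box, each searched on both strands. The window of Sdc1 lies at chr12:8771146-8771445 on the plus strand and that of Sdc4 at chr2:164443139-164443438 on the minus strand.
Sdc1: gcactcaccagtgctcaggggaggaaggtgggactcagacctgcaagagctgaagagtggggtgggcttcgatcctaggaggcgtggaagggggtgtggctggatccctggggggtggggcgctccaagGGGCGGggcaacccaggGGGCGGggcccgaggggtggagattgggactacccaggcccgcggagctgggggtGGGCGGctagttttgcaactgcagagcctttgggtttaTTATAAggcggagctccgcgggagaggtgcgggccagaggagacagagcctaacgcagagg
Sdc4: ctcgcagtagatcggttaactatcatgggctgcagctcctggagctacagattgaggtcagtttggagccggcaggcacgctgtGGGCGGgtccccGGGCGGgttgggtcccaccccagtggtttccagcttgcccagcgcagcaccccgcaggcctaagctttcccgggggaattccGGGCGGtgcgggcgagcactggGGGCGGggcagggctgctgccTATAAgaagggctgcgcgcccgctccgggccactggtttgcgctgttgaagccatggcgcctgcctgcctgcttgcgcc
The Sdc1 window held 3 GC boxes and the Sdc4 window 4. TATAA began 10 bases before the start in Sdc1, overlapped there by TTATA, the same motif on the opposite strand, and 29 bases before the start in Sdc4. Of all 32851 promoter windows of this length, 35.7% held a GC box and 24.9% TATAA. The CCAAT box was present on the opposite strand in Sdc1 and was not found in Sdc4, against 37.4% of all windows. The nuclear receptor site AGGTCA was present in Sdc4 and not found in Sdc1, against 16.3% of all windows. The E-box CACGTG was found in neither, against 7.15% of all windows. A match is only a run of letters and says nothing of binding in these cells.

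The basement membrane genes also split. Lamb1, which encodes the beta1 chain shared by several laminins, had 3 named probe sets, all higher in ckit- cells. The brightest, 1424114_s_at, read 9.40 and 9.43 in ckit+ cells, against 10.76 and 10.74 in ckit- cells. Its replicates were at most 0.032 apart, the closest together of the 3. The log2 difference was -1.33 ± 0.16, or 2.52-fold higher in ckit- cells.

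Of the other Lamb1 probe sets, 1424113_at read 8.07 and 8.05 in ckit+ cells, against 9.54 and 9.40 in ckit- cells (log2 difference -1.41 ± 0.16). The dimmest, 1451241_at, read 7.53 and 7.24 in ckit+ cells, against 8.73 and 8.59 in ckit- cells (log2 difference -1.27 ± 0.18). The 3 probe sets thus gave folds between 2.42 and 2.66, differences that lay closer together than their standard errors, and none of their arrays overlapped between populations. As with Sdc4, these probe sets share a sequence accession, and a probe set of the gene without a difference would not have been listed. The type ending in _s_at can match several transcripts of a gene or of a family.

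Laminins are also made by other cells of the tubule wall and vessels. Both populations were sorted for the Sox2 reporter, and the purity of the sort was not tested here. Of 5 markers of peritubular myoid cells, only Tagln (transgelin) was named. It averaged 5.99 ± 0.021 in ckit+ cells and 6.85 ± 0.059 in ckit- cells (SD of 2 arrays each). Of 5 endothelial markers only Plvap was named, at 5.40 and 5.39 in ckit+ cells, against 6.77 and 6.91 in ckit- cells. Its ckit+ values were not far above the lower quartiles of the arrays, 4.93 to 5.04, and whether they lie above background was not tested. The single named marker of each list was thus higher in the cells with more Lamb1 signal. Each could be named only because the deposited table lists probe sets chosen for a difference. The part of such cells in the difference of Lamb1, or in those of Sdc4 and Large2, was not tested. None of the 8 Sertoli cell, 5 Leydig cell, 4 macrophage and 4 fibroblast markers looked for was named. In sorted pools, fewer cells of a type and less RNA per cell cannot be told apart.

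Agrn encodes agrin, a heparan sulfate proteoglycan of basement membranes that binds laminin and clusters acetylcholine receptors at the neuromuscular junction. It read 8.77 and 8.67 in ckit+ cells, against 7.58 and 7.46 in ckit- cells. The populations lay 1.09 apart at their nearest arrays, while replicates were at most 0.12 apart. The log2 difference was 1.20 ± 0.16, or 2.30-fold higher in ckit+ cells, opposite in direction to Lamb1.

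Matrix glycosylation was represented by Large2 (listed as glycosyltransferase-like 1B), an enzyme that adds repeats of xylose and glucuronic acid to dystroglycan. Large2 read 5.55 and 5.61 in ckit+ cells, against 7.72 and 7.61 in ckit- cells. The populations were 2.00 apart at their nearest arrays, the widest separation among the 9 probe sets. Its log2 difference was -2.08 ± 0.16. Only 35 of the 45037 probe sets had a larger difference in either direction. The ckit+ values were not far above the lower quartiles of the arrays, which lay between 4.93 and 5.04. No detection limit was measured, so whether the ckit+ values of Large2 lie above background was not tested.

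Serpine2 encodes protease nexin-1, a secreted inhibitor of thrombin, urokinase and plasmin that binds heparan sulfate. It read 10.65 and 10.74 in ckit+ cells, against 9.06 and 8.92 in ckit- cells. Replicates were at most 0.14 apart and the populations did not overlap. The log2 difference was 1.70 ± 0.16, or 3.26-fold higher in ckit+ cells, and 97 probe sets had a larger difference in either direction.

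**Figure D2:**
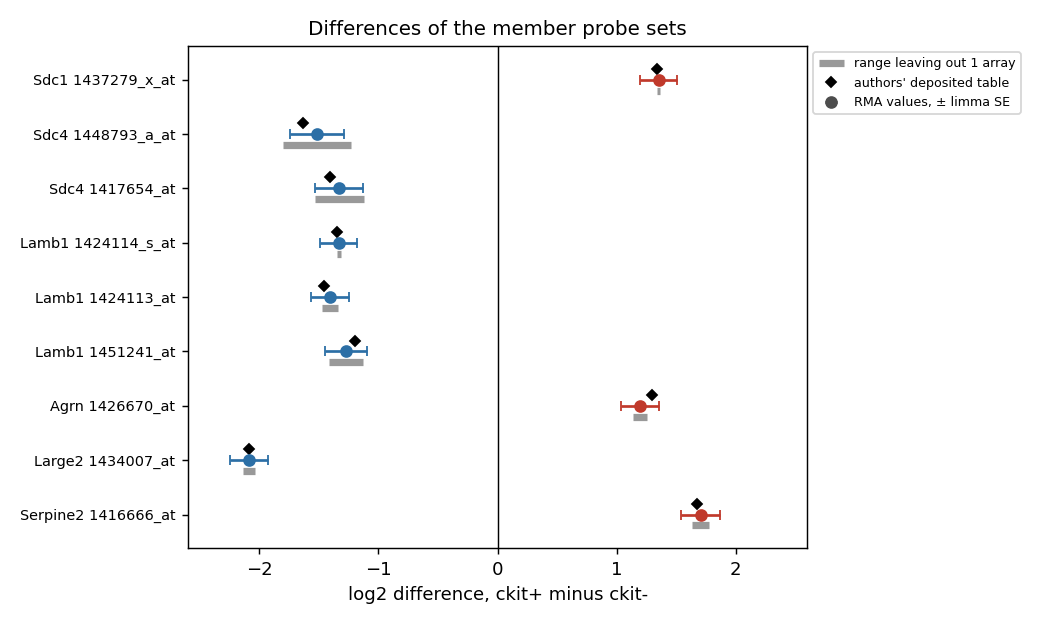
Log2 difference (horizontal axis, ckit+ minus ckit-) of each member probe set: circles are the RMA values with limma's standard error (red, higher in ckit+; blue, higher in ckit-), diamonds the authors' deposited table, grey bars the range when 1 array is left out. No member crosses 0, and the widest grey bar is that of the brighter Sdc4 probe set, from -1.81 to -1.23.

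The authors' deposited table chose its probe sets with a 2-fold minimum and an adjusted p of at most 0.05 in the authors' t-test over 605 tests. Among the members, the ratio in the authors' deposited table ran from 2.29 for the dimmest Lamb1 probe set to 4.26 for Large2. Its adjusted p ran from 0.013 for Agrn to 0.049 for the brighter Sdc4 probe set, so Sdc4 lay just inside the limit. That correction covered 605 tests and not all 45037 probe sets, so it cannot be set against limma's adjusted p below. Probe sets just outside the limit carry no name and cannot be given. Log2 differences in the authors' deposited table differed from those of the RMA values by -0.12 to 0.09.

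Fitted over all 45037 probe sets with limma, 5 of the 9 member probe sets had a Benjamini-Hochberg adjusted p under 0.05, against 0.309% of all probe sets. Of the 3 probe sets higher in ckit+ cells 2 did (Sdc1 and Serpine2), against 0.115% of all probe sets called in that direction. Of the 6 higher in ckit- cells 3 did (Large2 and 2 of the 3 for Lamb1), against 0.193%. Agrn, both Sdc4 probe sets and the dimmest Lamb1 probe set did not. With an intensity trend limma called 9 of the 9, among 419 calls over all 45037 probe sets. With the replicate number as a block it also called 9 of the 9, among 554 calls. With any 1 of the 4 arrays left out, limma called 0 probe sets, members included. Nothing is read from these counts, since the members were selected on this contrast. The median size of the log2 difference was 1.35 over the 9 probe sets and 0.21 over all probe sets.

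**Figure D3:**
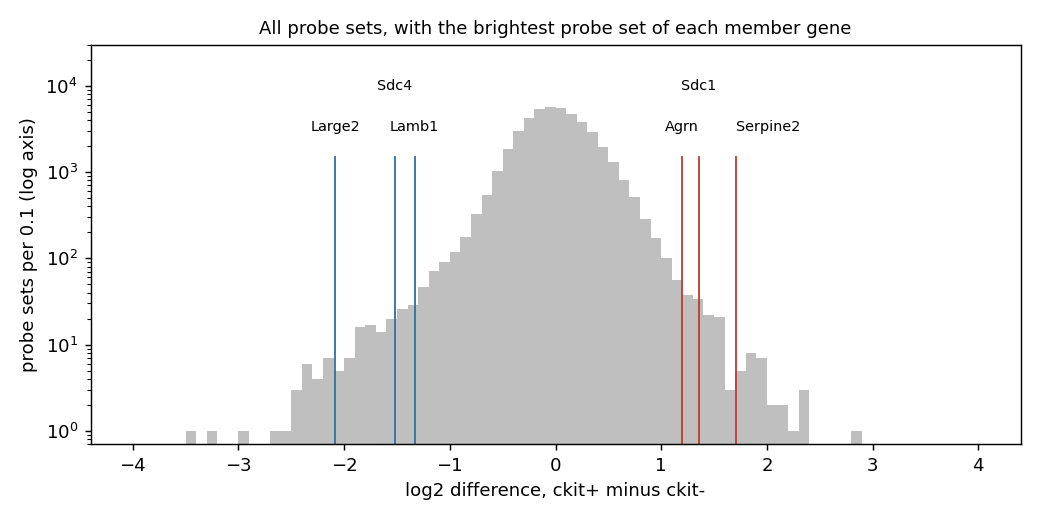
Distribution of the log2 difference, ckit+ minus ckit-, over all 45037 probe sets (grey, number of probe sets per 0.1 on a log axis), with lines at the brightest probe set of each member gene (red, higher in ckit+; blue, higher in ckit-). The members stand in both tails, between -2.08 and 1.70, and were chosen for doing so.

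The wider pathway could be followed only as far as the deposited table names genes. Of 111 genes in 6 lists of matrix, proteoglycan, glycosylation and protease genes, 7 were named: the members and Hs3st3b1. Higher values lay in ckit+ cells for 3 and in ckit- cells for 4 of the 7, and limma called 2 in each direction by their brightest probe set, against 0.115% of all probe sets towards ckit+ and 0.193% towards ckit- cells. All 7 were selected on this contrast, so nothing is read from the count. Their median log2 difference was -0.99, against -0.005 over all probe sets, but with values on both sides of 0 it is only the value of Hs3st3b1 and shows no shift of the lists. By list, the named genes were 3 of 14 heparan sulfate proteoglycan cores, 1 of 26 enzymes that make or edit heparan sulfate, 1 of 19 basement membrane proteins, 1 of 15 enzymes of dystroglycan glycosylation and 1 of 21 proteases and inhibitors. Among 17 matrix receptors, integrins and dystroglycan included, 0 were named. A gene without a name here is not thereby shown to be level between the populations.

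Hs3st3b1, a sulfotransferase that adds 3-O-sulfate to heparan sulfate, read 6.37 and 6.49 in ckit+ cells, against 7.50 and 7.34 in ckit- cells. The populations did not overlap. The log2 difference was -0.99 ± 0.17, and limma did not call it. The enzyme thus had its higher values in the same cells as Sdc4, and in the opposite cells to Sdc1 and Agrn.

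A few more genes of this biology in the deposited table were picked after their values were seen. Cask, a scaffold protein that binds the cytoplasmic tail of syndecans, read 8.25 and 8.42 in ckit+ cells, against 7.03 and 7.03 in ckit- cells. Ids, the lysosomal sulfatase that takes part in breaking down heparan sulfate, read 8.13 and 7.90 in ckit+ cells, against 6.79 and 6.73 in ckit- cells. F2rl1, a receptor that serine proteases cleave and activate, read 4.51 and 4.47 in ckit+ cells, against 6.54 and 6.20 in ckit- cells. Its ckit+ values lay below the lower quartiles of the arrays, 4.93 to 5.04, and whether they lie above background was not tested. Cask and Ids were higher in ckit+ cells, as Sdc1 was and Sdc4 was not, and F2rl1 was higher in ckit- cells, opposite to Serpine2.

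For each member the named genes with the most similar pattern were found by the root mean square difference between array values, each centred on its mean over the 4 arrays, among 216 other named genes. Sdc4 was nearest to Sfrp2, a secreted Wnt modulator (0.035 on the log2 scale), and to Enc1 (0.046), and each had its lowest value in ckit+ replicate 1 as Sdc4 did. Sfrp2 read 8.29 and 8.77 in ckit+ cells, against 10.03 and 10.07 in ckit- cells. Sdc1 was nearest to Wfs1 (0.015), an endoplasmic reticulum membrane protein, and to Emilin3 (0.057), itself a secreted matrix glycoprotein.

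Emilin3 read 8.14 and 8.25 in ckit+ cells, against 6.85 and 6.79 in ckit- cells. Lamb1 was nearest to Cartpt (0.032) and to Ddit4 (0.036), a brake on mTORC1 signalling. Large2 was nearest to Rasgrp2 (0.030) and Upp1 (0.039), Agrn to the phosphatase gene Ptp4a3 (0.033) and the transcription factor gene Tbx1 (0.040). Serpine2 had no neighbour closer than Stra8 (0.083), a retinoic acid-induced gene of meiotic entry, followed by Map2 (0.085). All candidates were selected for a difference on these arrays, so 4 values leave little room for patterns to differ, and likeness of this kind is a description.

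**Figure D4:**
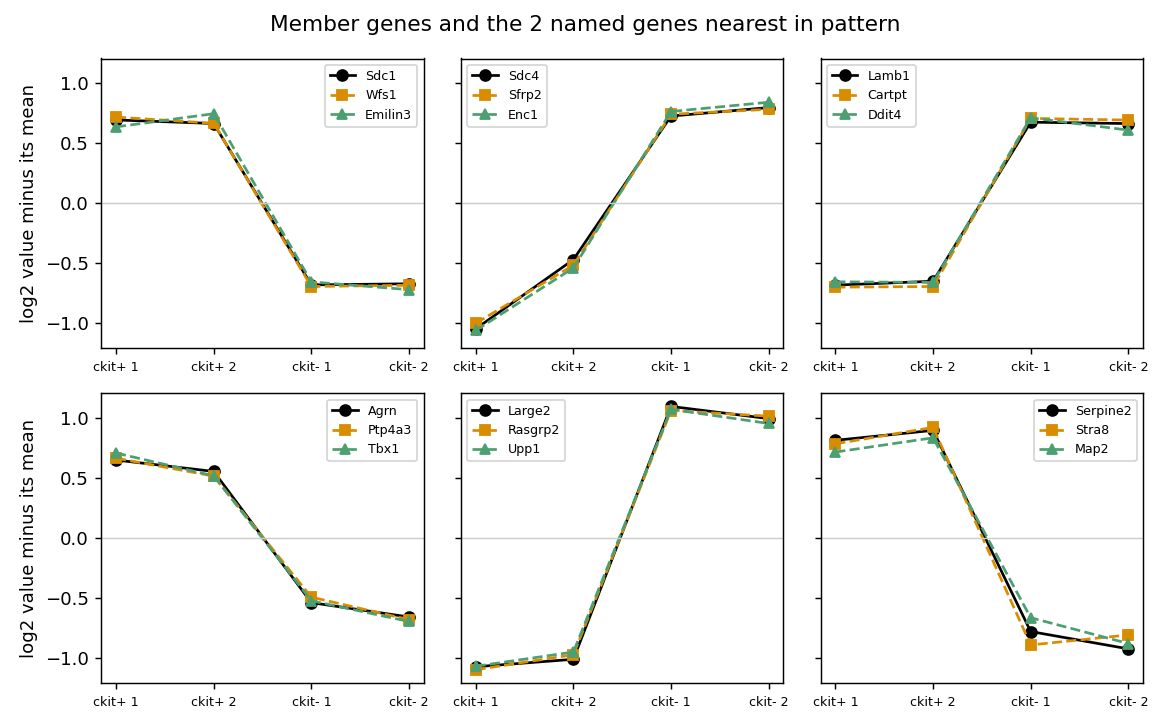
Log2 value minus its mean over the 4 arrays (vertical axis) for each member gene (black) and the 2 named genes nearest in pattern (orange squares, nearest; green triangles, second), with the ckit+ arrays left and the ckit- arrays right. In the Sdc4 panel all 3 genes are lowest in ckit+ replicate 1.

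The promoter windows of Lamb1, Serpine2 and Agrn also held GC boxes. Lamb1 had 2, Serpine2 had 6, and Agrn 12 at its first listed start and 2 at the other. The base composition differed accordingly, with 63.7% G and C for Lamb1, 77.7% for Serpine2 and 83.3% for the first Agrn window, against a median of 52.7% over all windows. Sdc1 and Sdc4 had 66.3% and 67.7%. CCAAT was present in Lamb1, and TATAA in neither Lamb1, Serpine2 nor Agrn. GC boxes were found in every member window searched, against 35.7% of all windows. They stood in genes higher in ckit+ and in genes higher in ckit- cells alike. For Large2 no promoter window was available.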

How the data were processed

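RNA of the sorted pools was amplified from 5 ng and hybridised to 4 one-colour arrays, 2 per population, per the labels' protocols. The deposited value table holds log2 values from the authors' RMA step, which corrects background, quantile-normalizes and summarises probes into probe sets, per the submitters' processing notes; the array model is not given in the sources used here. A second deposited table holds the authors' group means, a ratio (linear fold) and, for their t-test, the p-value before and after Benjamini-Hochberg correction, per the file headers; the normalization of its means is not stated. Its direction word is Up where ckit- is higher.

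Log2 values were used as deposited. Limma 3.58.1 in R 4.3.3 (lmFit and eBayes, two-sided) was fitted to all 45037 non-control probe sets, without filter or covariates, for ckit+ minus ckit-; it was tested on simulated data. A ± beside a difference is limma's standard error. The number of arrays limits the precision. Limma draws the variance of each probe set towards a value shared by all probe sets. Its standard errors and p-values thus rest on the spread between 2 pools per population over many probe sets, not on 1 alone. For Sdc1 the SD between replicates was 0.016 and the standard error 0.155. Of the 374 probe sets in the deposited table, 253 were named (223 genes): 61 by RefSeq accession, 101 by symbol and 91 by full name. The brightest probe set stands for a gene with several. Genes named by rule are the members, listed genes, Kit and the 2 nearest genes of each member; Cask, Ids and F2rl1 were added after their values were seen. Members and lists were chosen with earlier results of these data known. Promoter windows are RefSeq's. Alternatives were an intensity trend, a replicate block, a filter on dim probe sets, renewed quantile normalization, median centring, the methods' t-test, the authors' means, averaging all probe sets of a gene and leaving out each array.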

Additional observations from a re-analysis of the deposited data

How the results depend on the processing

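No member probe set changed direction in any of these alternatives, which the choice of members without overlap fixes for most of them. With 1 array left out, the log2 difference of the brighter Sdc4 probe set ran from -1.81 to -1.23 and of the dimmer from -1.54 to -1.12, of Sdc1 from 1.34 to 1.37, of Agrn from 1.14 to 1.26, of Serpine2 from 1.63 to 1.78, of Large2 from -2.13 to -2.03 and of the 3 Lamb1 probe sets from -1.48 to -1.13. Without ckit+ replicate 1, Sdc4 gave the smaller of its differences. Renewed quantile normalization gave 1.23 for Sdc1, 1.10 for Agrn, 1.60 for Serpine2 and -1.44 and -1.52 for the brighter Lamb1 probe sets. Each was a shift towards ckit- larger than the SD between replicates but smaller than limma's standard error of that probe set. Over all probe sets of the members' brightness range the median difference was 0.01 after this normalization and 0.09 before. In the authors' deposited table Sdc1 had 1.34 and Agrn 1.29. The mean over the probe sets of Sdc4 and of Lamb1 stayed within the spread between replicates.

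Limma's 139 calls over all probe sets became 419 with an intensity trend and 554 with a replicate block, and in each of these fits 9 of the 9 member probe sets passed. Same-numbered arrays deviated together with r = 0.26 across probe sets, but nothing in the labels says whether equal numbers share a litter or day. With the methods' t-test 1 probe set passed and 0 members did (5346 at an unadjusted p under 0.05), and with any 1 array left out limma called 0 (4513 to 6422 at an unadjusted p under 0.05). Fewer arrays leave fewer degrees of freedom. The other alternatives gave 99 to 142 calls, with 4 or 5 member probe sets among them. Depth has no counterpart on these arrays, and no detection limit was measured.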
